A study of Mus musculus with 14 samples.

Results

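The genes of glycolysis and of the response to low oxygen were followed through tumours and cultures of 4T1 cells, a mouse mammary carcinoma line used as a model of triple-negative breast cancer. The list holds 35 genes, taken by symbol with no threshold on a measured value, and Gapdh was left out of it. They comprise 14 glycolytic enzymes and 5 genes for glucose and lactate transport or for the control of glycolytic flow. The other roles are 3 genes for the hypoxia-inducible factor HIF and its hydroxylases, and 13 further genes known as targets of HIF. These 13 are called HIF targets below, though HIF also acts on genes of the other roles, such as those of glycolysis and Egln3. Of the 35, 33 were listed among the 13414 genes of the tumour table (not Pfkp and Eno1) and 32 among the 11793 genes of the cell table (not Pfkp, Aldoc and Slc16a3), so that 31 were listed in both and Pfkp in neither.

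The study asked how TAZ, a transcriptional coactivator of the Hippo pathway encoded by Wwtr1, acts in these tumours. All groups carried a lentiviral, doxycycline-inducible hairpin RNA in 4T1 cells that are wild type for TAZ, held as a cell pool and not as a clone. shTAZ tumours (4) carried a hairpin against TAZ and shC tumours (4) a control hairpin. Both grew from cells treated with doxycycline for 48 h, injected into the mammary fat pad of 8-week-old female BALB/c mice on doxycycline chow, and were taken 6 weeks after injection. shTAZ cells (3 cultures) and shC cells (3 cultures) were treated with doxycycline for 48 h in vitro. The sample labels themselves name no treatment, and nothing states whether cultures of 1 group were independent, so that p-values measure the spread between these libraries. A bulk tumour library also holds RNA of host cells, and fewer cells of a type and less RNA per cell cannot be told apart in it.

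RNA was measured by MARS-seq, which counts the 3′ ends of transcripts. Libraries held 1659736 to 3179767 counts in 7 of the tumours and 22364483 in shC tumour 1, which stood apart in depth, against 2243071 to 7959163 in shTAZ cells and 6820673 to 14815813 in shC cells. Levels are given as CPM (counts scaled to the same library size for all, TMM-normalized over all 14 libraries), in the order of the replicate numbers. Wwtr1 (GRCm38, chromosome 3, 57455644 to 57575910) had 22.8, 13.7, 17.9 and 26.4 CPM in shTAZ tumours, against 61.4, 29.9, 43.8 and 28.2 CPM in shC tumours, and 8.53, 11.03 and 6.38 CPM in shTAZ cells, against 42.8, 31.2 and 27.4 CPM in shC cells. The log2 fold change was -1.03 (SE 0.30, adjusted p = 0.923) in tumours and -2.11 (SE 0.32, adjusted p = 0.0356) in cells, by edgeR. Summed markers of epithelial cells (7 of 7 listed) reached 3197 to 5910 CPM in tumours and 3306 to 7558 CPM in cells. Summed markers of macrophages (8 genes, 8 listed for tumours and 6 for cells) reached 8075 to 12058 CPM in shTAZ tumours, 4971 to 9829 CPM in shC tumours, 41.6 to 64.0 CPM in shTAZ cells and 23.2 to 30.1 CPM in shC cells. Epidermal markers (6 of 6 listed) summed to 3586 CPM in shTAZ tumour 3 and 1939 CPM in shTAZ tumour 4 and to at most 41.5 CPM in the other tumours, and markers of urothelium and smooth muscle (7 of 7 listed) to 5508 CPM in shC tumour 2 and to at most 53.6 CPM elsewhere among tumours.

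Glycolysis breaks glucose down to pyruvate in the cytosol and makes ATP without oxygen, and lactate dehydrogenase then turns pyruvate into lactate, which leaves the cell through monocarboxylate transporters. Many tumour cells run this pathway fast even when oxygen is present. When oxygen is plentiful, prolyl hydroxylases such as EGLN1 and EGLN3 mark the alpha subunits of HIF for destruction by the VHL ubiquitin ligase. When oxygen is short, HIF accumulates as protein and binds hypoxia response elements, whose core reads ACGTG or GCGTG, beside genes for glycolysis, blood vessel growth, pH control and collagen modification. EGLN3 itself, and several other genes of the list, are known targets of HIF and are widely used as signs of hypoxia in tumours.

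Tumours were first set against cultures of the same line. In both lines 6 of the 30 genes tested were higher in tumours than in culture, namely Adm, P4ha2, Ankrd37, Egln3, Car9 and Pfkfb4, by log2 fold changes of 1.76 to 4.17, beside 14.5% of all genes that were called higher in both lines. The count was not far above what that share gives for 30 genes. All 6 are known as targets of HIF or, for Pfkfb4, as a hypoxia-induced regulator of glycolysis. The list was chosen from such genes, so this is no separate result. The enzymes that carry glycolytic flow differed less, and of the 11 tested only Gpi1 passed the threshold, in the shTAZ line. No tested gene of the list was called lower in tumours, where 14.2% of all genes in the shTAZ line and 17.6% in the shC line were. An adjusted p under 0.05 from edgeR's quasi-likelihood test, adjusted over all 9194 genes tested, was taken as a call.

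The promoters of the 6 genes are shown because these genes were called in both lines. The promoter of Ldha, the lactate dehydrogenase gene, is shown for contrast. In the 250 bases shown it holds 5 cores, against 4 for Ankrd37 and 3 for P4ha2. Overlapping cores are each counted, as in CACGTG of Ldha and CACGCGTG of Ankrd37, so both hold fewer separate sites. The level of Ldha was not called in either line. Ldha was chosen with these results known, and whether cores go with the rise in tumours was not tested. Each stretch is the 250 bases before the start site in the RefSeq table for GRCm38.p6, 5′ to 3′ on the strand of the gene. Capitals mark the core ACGTG or GCGTG on either strand, so that CACGT and CACGC are cores on the other strand. The stretches lie at chr7:110627407-110627656 (plus strand) for Adm, chr11:54100674-54100923 (plus strand) for P4ha2, chr8:45999851-46000100 (minus strand) for Ankrd37, chr12:54203875-54204124 (minus strand) for Egln3, chr4:43506776-43507025 (plus strand) for Car9, chr9:108991652-108991901 (plus strand) for Pfkfb4 and chr7:46845554-46845803 (plus strand) for Ldha.
Adm: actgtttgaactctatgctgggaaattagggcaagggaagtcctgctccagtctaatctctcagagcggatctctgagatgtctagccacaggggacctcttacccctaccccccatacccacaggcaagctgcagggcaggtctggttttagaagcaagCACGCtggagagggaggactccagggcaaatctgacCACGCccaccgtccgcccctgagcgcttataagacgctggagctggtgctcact
P4ha2: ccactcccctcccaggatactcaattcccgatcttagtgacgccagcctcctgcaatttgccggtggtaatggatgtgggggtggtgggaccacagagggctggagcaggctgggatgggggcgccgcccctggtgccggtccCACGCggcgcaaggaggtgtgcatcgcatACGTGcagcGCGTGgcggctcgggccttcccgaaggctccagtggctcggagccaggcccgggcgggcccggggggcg
Ankrd37: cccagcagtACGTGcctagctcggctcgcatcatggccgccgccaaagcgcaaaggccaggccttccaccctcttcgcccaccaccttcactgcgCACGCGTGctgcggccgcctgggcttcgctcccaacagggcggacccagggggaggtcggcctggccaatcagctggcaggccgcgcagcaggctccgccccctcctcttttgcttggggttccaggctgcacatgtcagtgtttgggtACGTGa
Egln3: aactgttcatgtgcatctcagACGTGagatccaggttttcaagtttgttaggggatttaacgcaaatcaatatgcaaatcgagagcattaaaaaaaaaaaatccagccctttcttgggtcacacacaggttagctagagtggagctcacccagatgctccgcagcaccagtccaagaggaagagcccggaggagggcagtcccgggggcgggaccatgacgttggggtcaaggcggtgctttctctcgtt
Car9: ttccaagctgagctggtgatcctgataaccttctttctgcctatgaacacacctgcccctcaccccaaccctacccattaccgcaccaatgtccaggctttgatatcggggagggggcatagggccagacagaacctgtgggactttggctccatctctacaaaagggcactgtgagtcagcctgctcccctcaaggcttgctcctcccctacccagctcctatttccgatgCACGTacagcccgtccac
Pfkfb4: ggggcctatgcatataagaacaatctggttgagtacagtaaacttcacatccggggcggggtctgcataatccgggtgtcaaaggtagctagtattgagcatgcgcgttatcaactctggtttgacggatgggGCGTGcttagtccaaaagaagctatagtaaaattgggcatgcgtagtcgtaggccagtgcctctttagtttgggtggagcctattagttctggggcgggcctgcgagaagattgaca
Ldha: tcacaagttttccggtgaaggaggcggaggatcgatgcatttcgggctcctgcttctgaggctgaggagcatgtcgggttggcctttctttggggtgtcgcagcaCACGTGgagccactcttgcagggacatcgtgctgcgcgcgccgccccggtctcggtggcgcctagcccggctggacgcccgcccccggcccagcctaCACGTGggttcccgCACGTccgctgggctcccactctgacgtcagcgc

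Within the whole window, from 250 bases before to 50 bases after the start, the core occurred 4 times for P4ha2 and Ankrd37, 2 times for Adm, 1 time for each of Egln3, Car9 and Pfkfb4, and 7 times for Ldha, where CACGTG counts as 2 overlapping cores. Of the 35 genes, 33 had a window (not Bnip3l and Ndrg1), and 30 of these, or 90.9%, held at least 1 core in at least 1 window. The share was 46.7% of all 27025 genes with a window and 65.9% of the 10084 genes of the tumour table with one. At least 2 cores were found for 75.8% of the listed genes, 22.9% of all genes and 37.1% of the genes of the tumour table. Some genes had more than 1 window, and of single windows 81.2% held a core for the listed genes. That share was 43.8% for all genes and 60.2% for the genes of the tumour table. The list was chosen from genes of the response to low oxygen, so its high shares are no separate result. The windows of Gpi1, Tpi1 and Car12 held none of these letters. A match describes the letters only and does not show that HIF was bound.

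**Figure D1:**
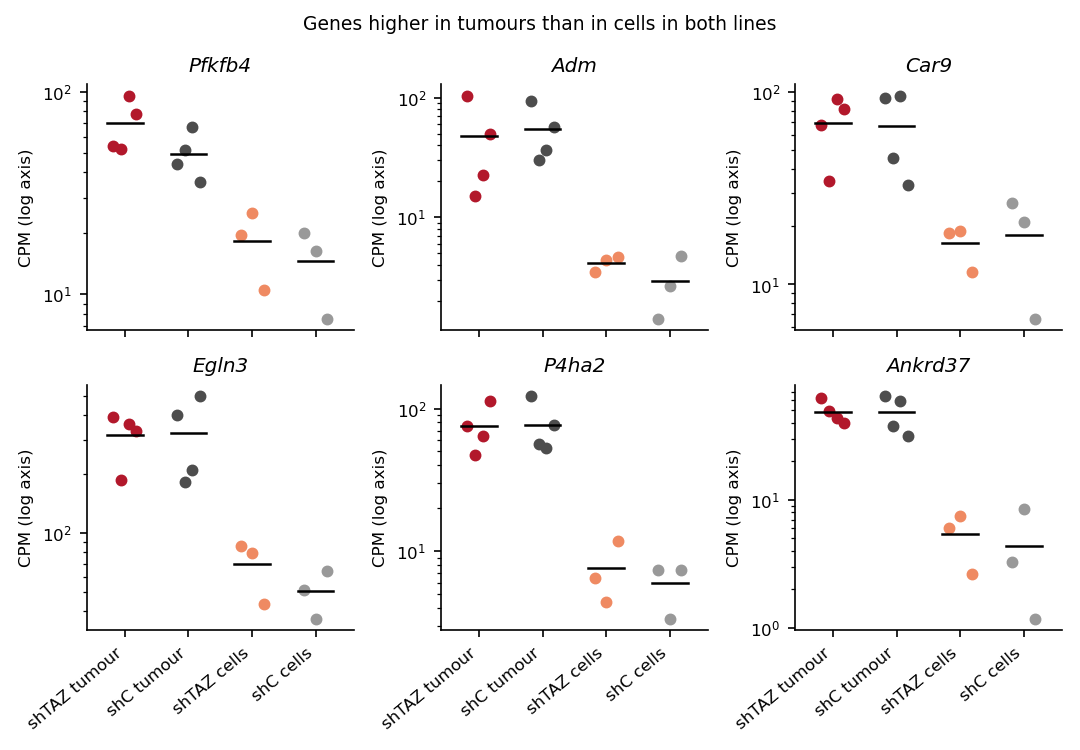
Level in CPM (log axis) of the 6 genes called higher in tumours than in culture in both lines, 1 point per library and a line at the mean, for shTAZ tumours, shC tumours, shTAZ cells and shC cells. Every tumour lay above every culture of its line for all 6 genes.

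Adm encodes adrenomedullin, a secreted peptide that widens and stabilizes blood vessels. It had 104, 14.99, 22.4 and 50.2 CPM in shTAZ tumours, against 3.51, 4.41 and 4.63 CPM in shTAZ cells (log2 fold change 3.50, SE 0.66, adjusted p = 8.72e-04). In the control line it had 93.4, 29.9, 36.8 and 57.2 CPM in shC tumours, against 1.41, 2.64 and 4.72 CPM in shC cells (log2 fold change 4.17, SE 0.65, adjusted p = 1.06e-04). No tumour overlapped a culture in either line, and among the tumours the level varied widely, highest in shTAZ tumour 1 and shC tumour 1 and lowest in shTAZ tumour 2.

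P4ha2 encodes an alpha subunit of collagen prolyl 4-hydroxylase, which hydroxylates newly made collagen. It had 75.1, 47.5, 64.7 and 113 CPM in shTAZ tumours, against 6.52, 4.41 and 11.8 CPM in shTAZ cells (log2 fold change 3.22, SE 0.45, adjusted p = 4.59e-05). The shC line showed 123, 56.2, 53.02 and 76.5 CPM in shC tumours, against 7.34, 3.33 and 7.40 CPM in shC cells (log2 fold change 3.69, SE 0.44, adjusted p = 8.06e-06). The lowest tumour of each line lay above the highest culture of that line. The related subunit gene P4ha1 had few counts in tumours, and its call in the shC line (log2 fold change 2.08, SE 0.78, adjusted p = 0.0458) was kept in 5 of the 14 fits that each left out 1 library of either line.

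Ankrd37, which encodes a small ankyrin repeat protein, had 62.1, 49.3, 43.6 and 39.6 CPM in shTAZ tumours, against 6.02, 7.50 and 2.63 CPM in shTAZ cells (log2 fold change 3.29, SE 0.57, adjusted p = 3.87e-04). In the other line it had 65.02, 38.04, 58.7 and 31.5 CPM in shC tumours, against 3.28, 8.51 and 1.16 CPM in shC cells (log2 fold change 3.49, SE 0.54, adjusted p = 1.01e-04). Tumours of both lines lay in a narrow band and every culture lay below it.

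Egln3 encodes a prolyl hydroxylase that acts on HIF. It had 392, 188, 362 and 330.5 CPM in shTAZ tumours, against 85.8, 79.4 and 43.4 CPM in shTAZ cells (log2 fold change 2.21, SE 0.39, adjusted p = 4.31e-04). For the shC line the values were 402, 183, 211 and 503 CPM in shC tumours, against 51.4, 36.4 and 64.5 CPM in shC cells (log2 fold change 2.68, SE 0.39, adjusted p = 6.19e-05). The groups did not overlap, and shTAZ tumour 2, shC tumour 2 and shC tumour 3 were the lowest tumours. Its relative Egln1, the main oxygen sensor of this family, had log2 fold changes of -0.081 (SE 0.20, adjusted p = 0.796) in the shTAZ line and -0.0084 (SE 0.20, adjusted p = 0.978) in the shC line.

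Car9 encodes carbonic anhydrase IX, a cell surface enzyme that helps tumour cells to export acid. It had 67.3, 34.3, 91.6 and 81.4 CPM in shTAZ tumours, against 18.6, 18.97 and 11.6 CPM in shTAZ cells (log2 fold change 2.09, SE 0.50, adjusted p = 0.00505). In the shC line it had 93.3, 45.1, 95.5 and 32.7 CPM in shC tumours, against 26.4, 21.1 and 6.61 CPM in shC cells (log2 fold change 1.90, SE 0.48, adjusted p = 0.00513). The lowest tumour of each line still exceeded the highest culture of that line. The other carbonic anhydrase of the list, Car12, overlapped between tumours and cultures in both lines, with 0.32 (SE 0.34, adjusted p = 0.502) and -0.39 (SE 0.33, adjusted p = 0.372) as log2 fold changes in the shTAZ and the shC line.

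Pfkfb4 encodes a bifunctional enzyme that makes and removes fructose 2,6-bisphosphate, the activator of phosphofructokinase. It had 53.6, 51.8, 95.5 and 77.9 CPM in shTAZ tumours, against 19.6, 25.1 and 10.5 CPM in shTAZ cells (log2 fold change 1.95, SE 0.39, adjusted p = 0.00132). Its values in the control line were 43.7, 51.5, 67.05 and 35.6 CPM in shC tumours, against 19.99, 16.4 and 7.55 CPM in shC cells (log2 fold change 1.76, SE 0.38, adjusted p = 0.00165). No library of a tumour overlapped with a culture. Pfkfb3, its relative with a strong kinase activity, had 44.5, 20.98, 25.9 and 20.8 CPM in shC tumours, against 0, 2.64 and 7.77 CPM in shC cells (log2 fold change 2.95, SE 0.82, adjusted p = 0.00967), and the count of 0 in shC cells 1 allows up to 0.469 CPM. Its values were 47.5, 11.99, 11.5 and 10.1 CPM in shTAZ tumours, against 2.51, 2.21 and 7.75 CPM in shTAZ cells (log2 fold change 2.15, SE 0.84, adjusted p = 0.064). Tumours again lay above cultures in both lines, but shTAZ tumour 1 stood far above the other shTAZ tumours and the call was made in the shC line only. The difference between the lines was not called (interaction -0.81 (SE 1.11, adjusted p = 1)).

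**Figure D2:**
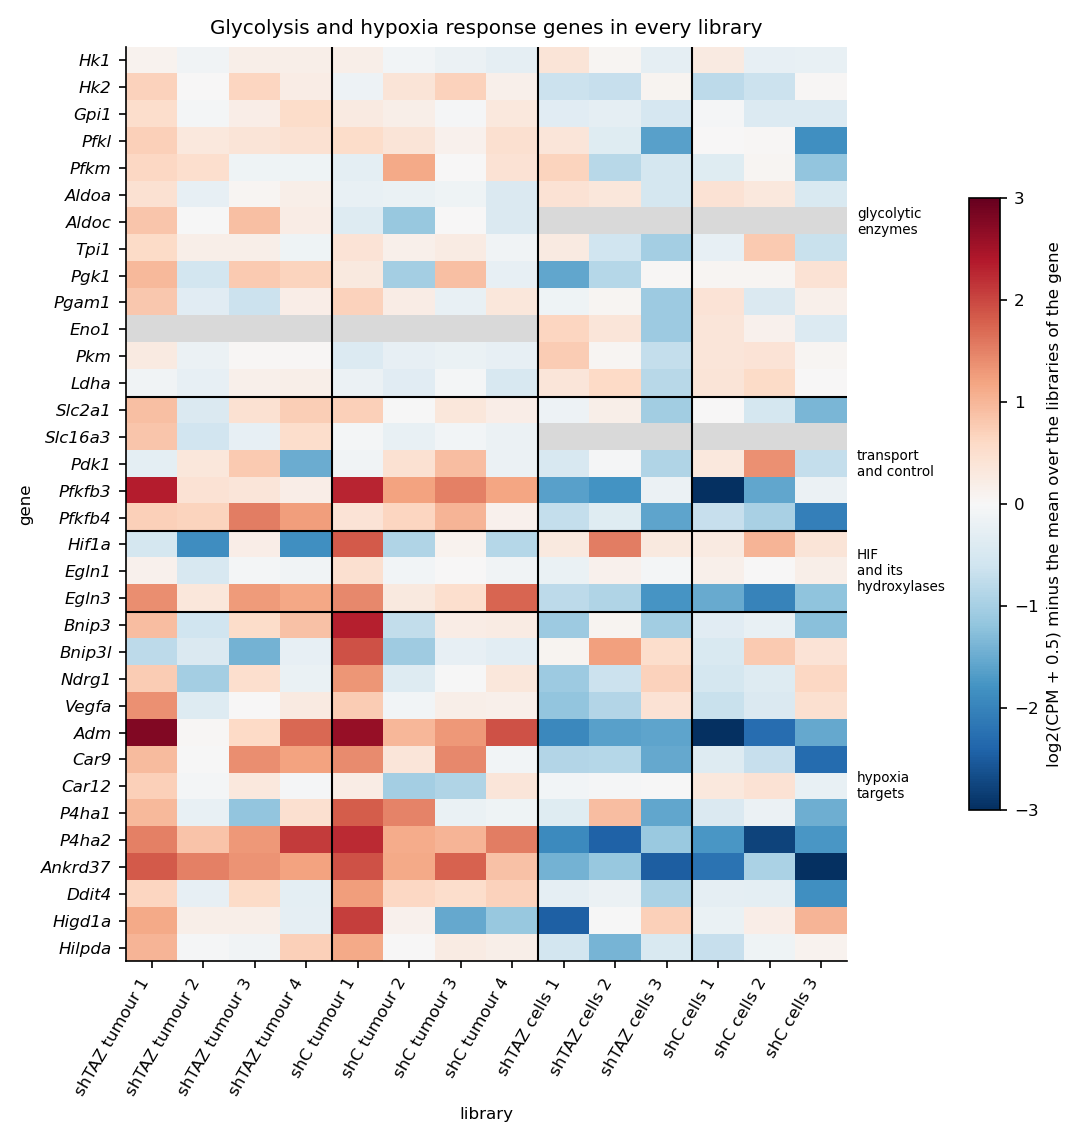
Level of each listed gene in each library as log2(CPM + 0.5) minus the mean over the libraries of that gene, with colours cut off at 3 and -3 and grey where a table does not list the gene. The 6 genes and Pfkfb3 are high in the tumour columns and low in the culture columns, while most glycolytic enzymes differ little between them.

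Over the whole list, 8 of 30 tested genes were called in the shTAZ line, all higher in tumours, where 30.5% of all genes tested were called and 16.3% of all genes tested were called higher. In the shC line 10 of 30 were called, again all higher, beside 38.4% of all genes tested called and 20.8% called higher. The median log2 fold change was 0.68 in the shTAZ line (24 of 30 positive) and 0.58 in the shC line (23 of 30), against -0.052 and -0.0076 over all genes tested. By role the genes grouped as HIF targets had medians of 0.82 and 1.45 in the shTAZ and the shC line, with 12 of 13 positive in each. This role leaves out the targets of HIF among the enzymes and the transport and control genes. The 3 transport and control genes tested had medians of 1.95 and 1.76, and the 11 glycolytic enzymes 0.55 (8 positive) and 0.10 (6 positive). Without shC tumour 1, the deepest library, the HIF targets had a median of 0.52 in the shC line (10 of 13 positive). Values of tumours and cultures did not overlap for 9 genes that were higher in shTAZ tumours (20% of all genes were) and 2 that were lower (17.1%), and for 10 genes higher in shC tumours (23%) and 2 lower (19.6%). The 2 lower in shTAZ tumours were Hif1a and Bnip3l, which had too few counts to be tested within tumours.

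Each fit that left out 1 library held all 4 groups, so leaving out a library of the other line kept both compared groups whole. The calls in the 6 genes were kept in both lines in all 14 such fits, and in every other setting that kept the gene. Gpi1, the glucose 6-phosphate isomerase gene, had 593, 394, 470.3 and 599 CPM in shTAZ tumours, against 325, 343 and 291 CPM in shTAZ cells (log2 fold change 0.69, SE 0.19, adjusted p = 0.0128), with no overlap, and 14 of 14 such fits called it. In the control line it had 498, 463, 404 and 516 CPM in shC tumours, against 399, 308 and 310.2 CPM in shC cells (log2 fold change 0.47, SE 0.19, adjusted p = 0.0601), also without overlap but not called. Hilpda, which encodes a lipid droplet protein, was called in the shTAZ line (log2 fold change 1.24, SE 0.37, adjusted p = 0.0179, 12 of 14 fits) and not in the shC line (log2 fold change 0.68, SE 0.35, adjusted p = 0.138). Ddit4, which encodes the stress-induced inhibitor of mTOR signalling REDD1, was called in the shC line (log2 fold change 1.45, SE 0.36, adjusted p = 0.00521, 14 of 14 fits) and not in the shTAZ line (log2 fold change 0.67, SE 0.36, adjusted p = 0.169). None of these differences between the lines was called, and the interaction gave 0.22 for Gpi1, 0.56 for Hilpda and -0.78 for Ddit4 on the log2 scale.

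The genes most often taken to stand for glycolysis did not all lie higher in tumours. Ldha had 1367, 1228, 1620.3 and 1664 CPM in shTAZ tumours, against 1874, 2204 and 828 CPM in shTAZ cells (log2 fold change -0.15, SE 0.26, adjusted p = 0.693), and 1289, 1165, 1405 and 1058 CPM in shC tumours, against 1910.4, 2179 and 1479.9 CPM in shC cells (log2 fold change -0.59, SE 0.26, adjusted p = 0.0841). Only in the shC line did its groups not overlap, with tumours below cultures. Pkm, which encodes the pyruvate kinase of most dividing cells, had 3341, 2424, 2831 and 2824 CPM in shTAZ tumours, against 4690.1, 2885 and 1672 CPM in shTAZ cells (log2 fold change -0.11, SE 0.25, adjusted p = 0.775). In the shC line it had 2061, 2312, 2397 and 2332 CPM in shC tumours, against 3533, 3686 and 2871 CPM in shC cells (log2 fold change -0.56, SE 0.25, adjusted p = 0.0901), and there too every tumour lay below every culture. Neither was called at the adjusted threshold.

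Hk2 encodes the hexokinase that traps glucose in many tumours. It had 58.2, 36.4, 56.4 and 42.2 CPM in shTAZ tumours, against 23.1, 22.1 and 38.5 CPM in shTAZ cells (log2 fold change 0.77, SE 0.30, adjusted p = 0.0638), and 32.4, 47.3, 58.7 and 40.1 CPM in shC tumours, against 20.8, 23.1 and 36.8 CPM in shC cells (log2 fold change 0.72, SE 0.29, adjusted p = 0.0645). Slc2a1, the gene of the glucose transporter GLUT1, had 489, 192, 358 and 433 CPM in shTAZ tumours, against 236, 296 and 127 CPM in shTAZ cells (log2 fold change 0.75, SE 0.36, adjusted p = 0.126), and 430.2, 261, 332 and 299 CPM in shC tumours, against 264, 179.9 and 101 CPM in shC cells (log2 fold change 0.86, SE 0.36, adjusted p = 0.068). Both genes had positive log2 fold changes in both lines that missed the threshold, and tumours overlapped with cultures. Pgk1, the phosphoglycerate kinase gene, had low counts, with 16.9, 5.57, 14.7 and 13.6 CPM in shTAZ tumours, against 2.51, 4.41 and 8.63 CPM in shTAZ cells (log2 fold change 1.19, SE 0.51, adjusted p = 0.0871). In the control line the values overlapped, with 10.5, 3.91, 16.2 and 7.05 CPM in shC tumours, against 8.75, 8.81 and 11.5 CPM in shC cells (log2 fold change -0.049, SE 0.47, adjusted p = 0.948). The mouse annotation names pseudogenes for Pgk1, Pgam1, Ldha, Tpi1 and Aldoa, whose copies may share reads with them. The levels of these genes are therefore uncertain, here and in the knockdown and interaction comparisons below.

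Hif1a itself, the oxygen-controlled subunit whose protein and not its RNA is the main point of control, had 2.93, 0.857, 5.13 and 0.88 CPM in shTAZ tumours, against 5.52, 13.7 and 5.50 CPM in shTAZ cells (log2 fold change -1.78, SE 0.77, adjusted p = 0.0884). The 4 shTAZ tumours lay below the 3 cultures in CPM, on only 2 to 9 counts, against 11 to 44 counts in the cultures. In the shC line it had 17.2, 2.13, 4.82 and 2.23 CPM in shC tumours, against 5.47, 9.39 and 5.95 CPM in shC cells (log2 fold change 0.049, SE 0.65, adjusted p = 0.961), with shC tumour 1 above and the other 3 tumours below all shC cultures. Vegfa, the vascular growth factor gene, had 199.6, 58.7, 77.5 and 92.4 CPM in shTAZ tumours, against 33.6, 41.9 and 104 CPM in shTAZ cells (log2 fold change 0.82, SE 0.44, adjusted p = 0.172), and 130.2, 72.5, 86.3 and 85.4 CPM in shC tumours, against 48.4, 56.7 and 107 CPM in shC cells (log2 fold change 0.41, SE 0.43, adjusted p = 0.486). Bnip3, a mitophagy receptor gene, had 60.1, 20.6, 46.1 and 58.1 CPM in shTAZ tumours, against 14.6, 33.1 and 14.9 CPM in shTAZ cells (log2 fold change 1.17, SE 0.62, adjusted p = 0.162). In the shC line Bnip3 had 159.6, 18.5, 36.8 and 37.5 CPM in shC tumours, against 24.8, 26.9 and 12.9 CPM in shC cells (log2 fold change 1.58, SE 0.60, adjusted p = 0.0463), but the log2 fold change was 0.52 without shC tumour 1 and 6 of the 14 fits without 1 library made the call.

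**Figure D3:**
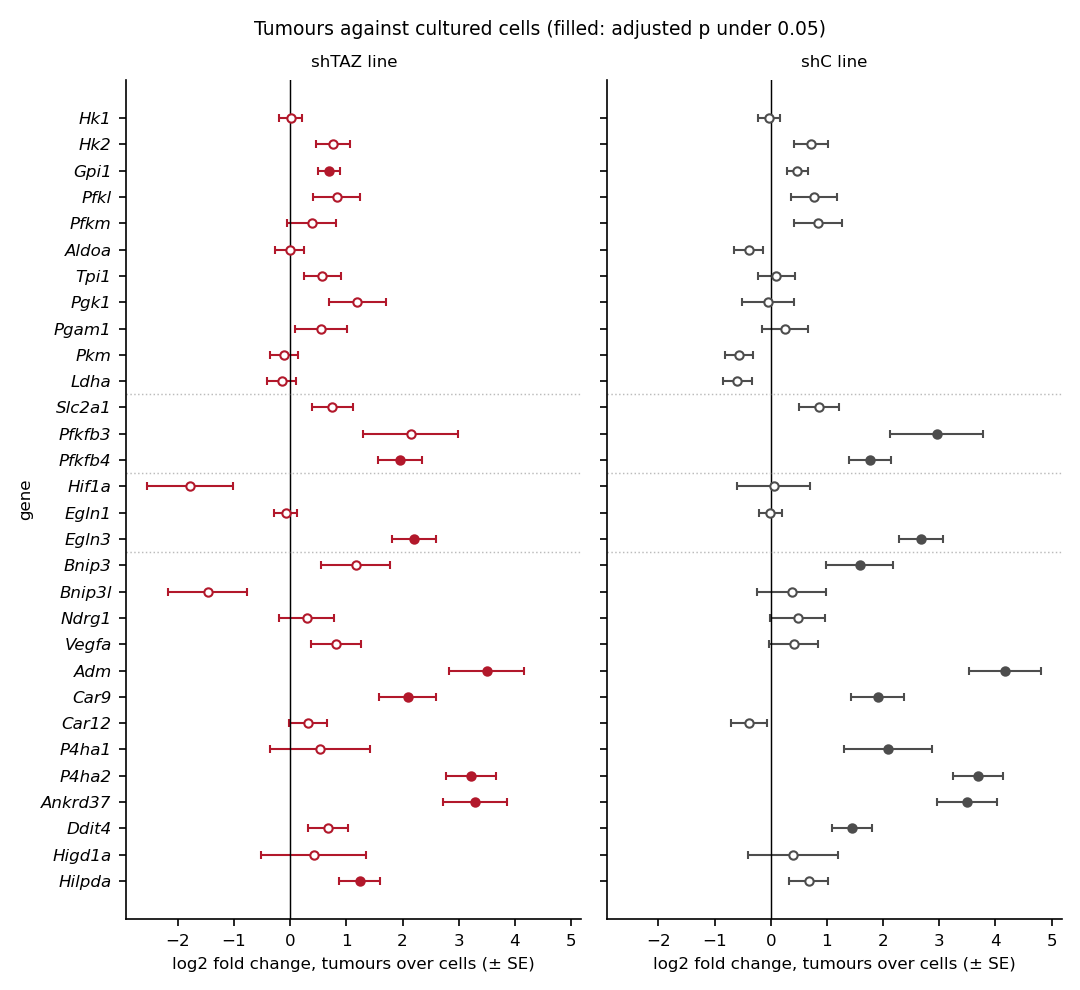
Log2 fold change of tumours over cells of the same line (± SE) for each tested gene of the list, grouped by role, in the shTAZ line and the shC line. Filled points are called (adjusted p under 0.05), all of them to the right of 0, and most glycolytic enzymes lie closer to 0 than the filled HIF targets.

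Genes of neighbouring pathways were read in the same fits, where, of all genes tested, 16.3% were called higher and 14.2% lower in the shTAZ line and 20.8% higher and 17.6% lower in the shC line. All 10 tested genes of pyruvate oxidation, the citric acid cycle and the respiratory chain had negative log2 fold changes in both lines, with medians of -0.83 in each, and the same 6 were called lower in tumours of both lines (11.6% of all genes were). These were Pdha1, a pyruvate dehydrogenase subunit (-1.53 in the shTAZ line and -1.15 in the shC line), Cs, citrate synthase (-1.05 and -1.21), Idh3a, isocitrate dehydrogenase (-1.26 and -1.47), Sdhb of complex II (-0.87 and -0.86), Cox4i1 of cytochrome c oxidase (-0.79 and -0.79) and Atp5b of ATP synthase (-1.22 and -1.47). Of 26 further HIF targets tested, 10 were called higher and 1 lower in shTAZ tumours, and 8 higher and 3 lower in shC tumours. Plod1, a collagen lysyl hydroxylase gene, was higher by 2.54 and 2.61, and Stc2, which encodes a stanniocalcin, lower with -1.77 and -2.37 in the shTAZ and the shC line. Of 14 further genes of glycolysis and glucose entry, 4 were called higher and 5 lower in shTAZ tumours, and 5 higher and 4 lower in shC tumours. Pgm2 was higher (2.03 and 1.63) and Pgm1 lower (-2.49 and -2.18), both of them phosphoglucomutase genes. Of 7 genes of the pentose phosphate pathway, Pgls and Rpia were called lower in both lines. Among 9 subunits and regulators of HIF, Cited2 and Siah2 were called lower in both lines, Arnt higher in the shC line (0.89) and Epas1 higher in both. Epas1, which encodes the alpha subunit HIF-2α, had 38.4 to 55.6 CPM in shTAZ tumours, against 0.125 to 2.65 CPM in shTAZ cells, and 37.2 to 70.8 CPM in shC tumours, against 0 to 0.294 CPM in shC cells, where the counts were 0 to 4. Counts were also low in shTAZ cells (1 to 6), so Epas1 passed the filter on low counts only through the tumours. Its calls are therefore description only.

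Tumours and cultures were deposited in separate tables, and the sources used here do not say whether their libraries were made together, so the place of growth, the host cells and any difference in preparation cannot be told apart. Summed fibroblast markers were at 1597 to 4301 CPM in shTAZ tumours, 1477 to 4369 CPM in shC tumours and at most 9.26 CPM in any culture, and summed endothelial markers at 203 to 548, 178 to 605 and at most 41.8 CPM. The part of these cells, and of the macrophages above, in the levels of the listed genes was not tested.

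The knockdown was compared within tumours next. No gene of the list was called between shTAZ and shC tumours, and the hypoxia genes varied more from tumour to tumour within a group than between the groups. Pkm was the only 1 of the 27 tested genes whose groups did not overlap. It had 3341, 2424, 2831 and 2824 CPM in shTAZ tumours, against 2061, 2312, 2397 and 2332 CPM in shC tumours (log2 fold change 0.32, SE 0.14, unadjusted p = 0.0435 by edgeR), with every shTAZ tumour above every shC tumour. That separation gives p = 0.0286 in an exact two-sided permutation test, the smallest p that 4 against 4 can give, and 1.47% of all genes tested were separated in this direction. Pkm was picked for this separation from the 27 genes tested, so that p does not hold as for a gene set in advance. The adjusted p of Pkm by edgeR was 0.923.

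Of 9196 genes tested by edgeR in tumours, 0 were called (0%), and 0 of 27 listed genes. DESeq2 called 4 genes and none of the list. At an unadjusted p under 0.05 edgeR found 366 genes (3.98%) and 2 of the list, Pkm and Ddit4, a count not far above what that share gives for 27 genes. Ddit4 had 347, 188, 334 and 181 CPM in shTAZ tumours, against 535, 339.9, 322 and 359 CPM in shC tumours (log2 fold change -0.57, SE 0.26, unadjusted p = 0.0491), where the groups overlapped between 322 and 347 CPM. The listed genes had a median log2 fold change of 0.023 (16 of 27 positive), against -0.0096 over all genes. By role the median was 0.12 in glycolytic enzymes (9 of 11 positive), 0.26 in transport and control (3 of 4) and -0.031 in HIF targets (4 of 10).

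**Figure D4:**
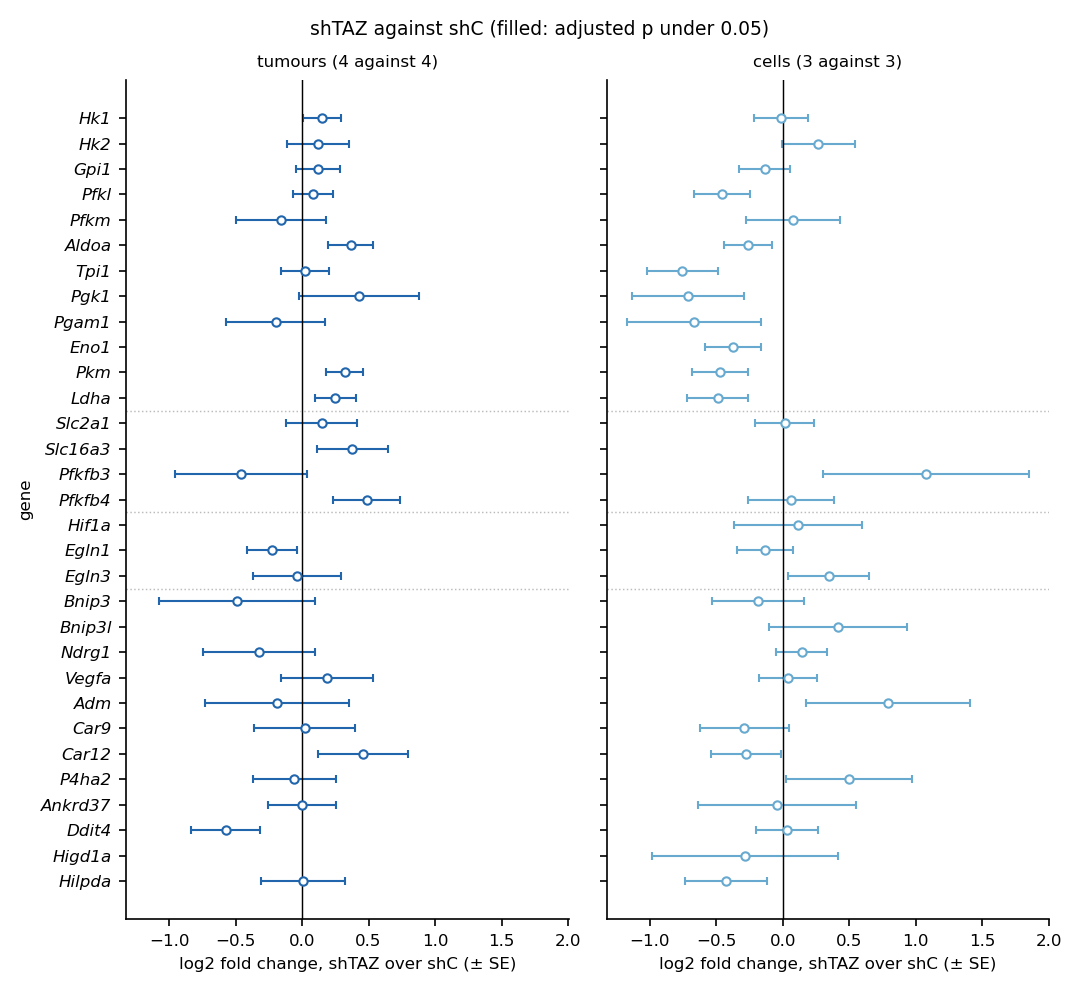
Log2 fold change of shTAZ over shC (± SE) for each tested gene of the list in tumours and in cells. No point is filled, since no gene had an adjusted p under 0.05, and the error bars of most genes cross 0.

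The positive end held Pfkfb4 (log2 fold change 0.48 (SE 0.25, adjusted p = 0.923)), Car12, Pgk1 and Slc16a3. Car12 had 55.9, 32.1, 42.3 and 33.00 CPM in shTAZ tumours, against 39.2, 16.4, 17.97 and 43.8 CPM in shC tumours (log2 fold change 0.46, SE 0.34, adjusted p = 0.923). Pgk1 gave log2 fold change 0.43, SE 0.45, adjusted p = 0.93, and shC tumours 2 and 3 held both the lowest and the next to highest of its 8 values. Slc16a3, which encodes the lactate exporter MCT4, had 252, 95.5, 119.8 and 205 CPM in shTAZ tumours, against 136, 122, 133 and 124 CPM in shC tumours (log2 fold change 0.38, SE 0.27, adjusted p = 0.923), and shTAZ tumours 1 and 4 were above the shC tumours while shTAZ tumours 2 and 3 were below them.

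The negative end held Ddit4, Bnip3, Pfkfb3 and Ndrg1. Pfkfb3 (values above) gave log2 fold change -0.46, SE 0.50, adjusted p = 0.931, with 3 of 4 shTAZ tumours below every shC tumour and shTAZ tumour 1 above them all. Bnip3 gave log2 fold change -0.49, SE 0.59, adjusted p = 0.937, and its sign turned without shC tumour 1, with a log2 fold change of 0.58. Ndrg1, a differentiation and stress response gene, had 493, 144, 411 and 253 CPM in shTAZ tumours, against 735, 224, 291 and 369.6 CPM in shC tumours (log2 fold change -0.32, SE 0.42, adjusted p = 0.941), and it likewise moved to 0.14 without shC tumour 1. Among the genes followed throughout, Ldha gave 0.25 (SE 0.15, adjusted p = 0.923), Hk2 0.12 (SE 0.23, adjusted p = 0.958), Slc2a1 0.15 (SE 0.27, adjusted p = 0.958), Vegfa 0.19 (SE 0.35, adjusted p = 0.958) and Car9 0.021 (SE 0.38, adjusted p = 0.999). Hif1a was too low to be tested in tumours.

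Single tumours spread widely within each group. shTAZ tumour 1 held the highest value of the 8 tumours for 12 of the 27 genes tested (8.75% of all genes were highest there), shC tumour 1 for 8 (21.3%), and shTAZ tumour 2 for none, while it held the lowest value for 8 (11.4%). The mean deviation of the 10 HIF targets from their mean over tumours was 0.55, -0.69, -0.05 and 0.061 in shTAZ tumours and 0.82, -0.50, -0.12 and -0.075 in shC tumours, on the log2 scale, so that the ranges of the groups overlapped almost fully. For the 11 glycolytic enzymes it was 0.37, -0.20, 0.028 and 0.082 in shTAZ tumours and -0.032, -0.083, -0.028 and -0.14 in shC tumours, with shTAZ tumour 2 below all shC tumours and the other 3 above them. Among the tested genes, in shC tumour 1 Bnip3 reached 4.33 times, Adm 2.54 times and Ndrg1 2.53 times the median of the other 3 shC tumours, whereas Hk2 stood at 0.686 times and Pkm at 0.884 times. Higd1a, Hif1a, Bnip3l and P4ha1, untested in tumours for low counts, reached 14.7, 7.72, 5.24 and 4.65 times that median. Without shC tumour 1 the list had a median log2 fold change of 0.25 (22 of 27 positive) and the HIF targets 0.26 (9 of 10). Without shTAZ tumour 1 these were -0.086 (11 of 28 positive) and -0.27 (2 of 10). The medians of the list without any other tumour, those with epidermal or urothelial markers included, lay between these values. Summed markers of stress and of the immediate early response (7 of 7 listed, among them Fos, Egr1 and Hspa1a) were at 545, 248, 261 and 374 CPM in shTAZ tumours, against 1189, 475, 259.9 and 634 CPM in shC tumours, so that shC tumour 1 was the highest in them as in the HIF targets. The part of these genes, of the host cells and of the depth of shC tumour 1 in this spread was not tested.

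**Figure D5:**
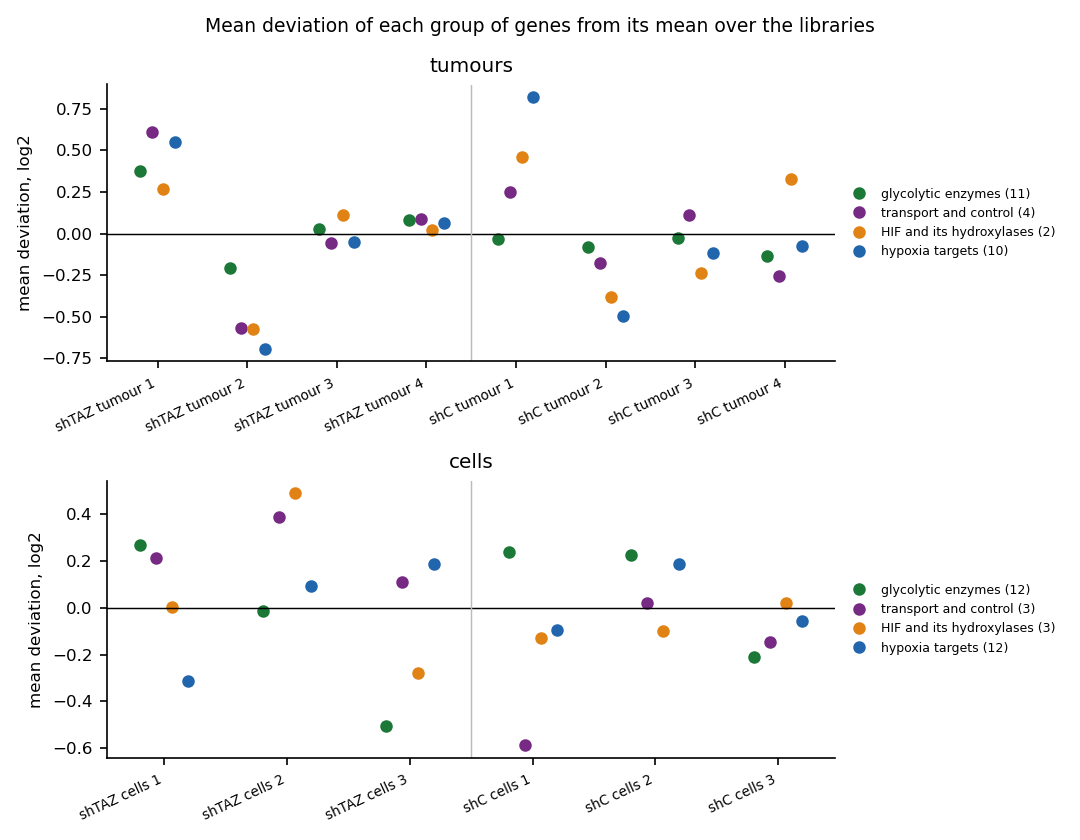
Mean deviation of each role's genes from their mean over the tumours (upper panel) or the cultures (lower panel), in log2 units, 1 point per role and library. HIF targets reach 0.55 in shTAZ tumour 1 and 0.82 in shC tumour 1 and fall to -0.69 in shTAZ tumour 2, and the glycolytic enzymes are lowest in shTAZ cells 3, at -0.50.

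Tumours 1 and 2 of each group have library codes that start with other letters than tumours 3 and 4, and the labels do not say what the letters mean. Within the first letters the HIF targets had a median of -0.53 (3 of 12 positive) and the glycolytic enzymes of 0.058 (8 of 11). Within the second letters these were 0.09 (6 of 10) and 0.22 (7 of 11). The sign of the HIF targets thus differed between the sets and that of the glycolytic enzymes did not. The set of the first letters held shC tumour 1, and the HIF targets tested were not the same genes in both sets. No listed gene was called within either set.

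In culture no listed gene was called, and the median of the glycolytic enzymes differed in sign between pairs of equal replicate number. As a group the enzymes lay below the control in the fit with a surrogate variable, and differed little from it without that variable. The fit held 1 such variable, an estimated hidden factor, as the study also corrected its cultures for batch. Of 9828 genes tested by edgeR 1 was called (0.0102%), which was Wwtr1, and 0 of 30 listed genes, while DESeq2 called 5 genes and none of the list. At an unadjusted p under 0.05 edgeR found 386 genes (3.93%) and 4 of the list, all negative. These were Pfkl, the liver-type phosphofructokinase gene (log2 fold change -0.46, SE 0.21, unadjusted p = 0.0436), Tpi1, triosephosphate isomerase (log2 fold change -0.75, SE 0.27, unadjusted p = 0.012), Pkm (log2 fold change -0.47, SE 0.21, unadjusted p = 0.0398) and Ldha (log2 fold change -0.49, SE 0.23, unadjusted p = 0.0455).

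Tpi1 had 491, 269 and 202 CPM in shTAZ cells, against 345, 706 and 255 CPM in shC cells. shC cells 2 was far above the rest, and the other values of the groups overlapped. Pfkl had 216, 129 and 54.03 CPM in shTAZ cells, against 168, 172 and 46.5 CPM in shC cells, and replicate 3 of both groups was low. Its mean was 133.0 CPM in shTAZ cells and 128.8 CPM in shC cells, and its log2 fold change was 0.045 without the surrogate variable and 0.068 with the replicate block, so its negative sign came with the surrogate variable. Without that variable the log2 fold change was -0.44 for Tpi1, -0.12 for Pkm and -0.17 for Ldha, at unadjusted p of 0.326, 0.739 and 0.626 by edgeR. With the replicate block it was -0.39, -0.23 and -0.27, at unadjusted p of 0.126, 0.254 and 0.176 by edgeR. Pkm and Ldha, with values given above, were lowest in shTAZ cells 3, and without that library the log2 fold change of Ldha was 0.14.

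Pgk1 was the only listed gene whose groups did not overlap in culture, all shTAZ cells being lower than all shC cells (2.91% of all genes were separated in this direction). Its exact permutation p was 0.1, the smallest that 3 against 3 can give, in a test that did not keep the pairs of cultures. For Pgk1 edgeR gave log2 fold change -0.71, SE 0.42, adjusted p = 1. Pgam1, phosphoglycerate mutase, had 6.52, 7.50 and 3.13 CPM in shTAZ cells, against 9.84, 5.19 and 8.13 CPM in shC cells (log2 fold change -0.67, SE 0.50, adjusted p = 1). The positive end held Pfkfb3 (log2 fold change 1.08, SE 0.77, adjusted p = 1), Adm (log2 fold change 0.79, SE 0.61, adjusted p = 1) and P4ha2 (log2 fold change 0.50, SE 0.47, adjusted p = 1), all of which had few counts in culture, and Bnip3l, a mitophagy receptor gene like Bnip3, which had 4.52, 10.6 and 6.38 CPM in shTAZ cells, against 2.97, 7.63 and 5.81 CPM in shC cells (log2 fold change 0.42, SE 0.52, adjusted p = 1). Hk2 gave 0.27 (SE 0.27, adjusted p = 1), Slc2a1 0.015 (SE 0.22, adjusted p = 1), Hif1a 0.11 (SE 0.48, adjusted p = 1), Bnip3 -0.18 (SE 0.35, adjusted p = 1), Vegfa 0.042 (SE 0.22, adjusted p = 1) and Car9 -0.29 (SE 0.33, adjusted p = 1), and none of them passed the threshold.

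The median log2 fold change of the list was -0.085 in culture and that of the 12 glycolytic enzymes -0.41 (10 of 12 negative), against -0.0089 over all genes. With the replicate number as a block in place of the surrogate variable the median of the enzymes was -0.057 (8 of 12 negative) and 6 genes were called, none of the list. With neither it was -0.04 (7 of 12 negative), and without shTAZ cells 3 it was -0.082. Within the pairs of equal replicate number the enzymes had medians of 0.13 (5 of 12 negative), -0.028 (6 of 12) and -0.22 (9 of 12). Cultures of equal number resembled each other, and replicate 3 stood apart in both lines. In those libraries Ndrg1 was higher, with 137, 187 and 469.7 CPM in shTAZ cells and 202, 224 and 448 CPM in shC cells, and Aldoa, the aldolase of most tissues, was lower, with 1949, 1815 and 997 CPM in shTAZ cells and 1954, 1803 and 1040.0 CPM in shC cells.

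Finally, the response to the knockdown was compared between tumours and culture by an interaction term, fitted over the 14 libraries. No gene of 9194 was called by edgeR or by DESeq2, and 227 genes (2.47%) and none of the 30 listed genes had an unadjusted p under 0.05. The glycolytic enzymes had a median interaction of 0.30 (10 of 11 positive) and the HIF targets of -0.20 (5 of 13 positive), against -0.025 over all genes. Among the enzymes it was 1.24 (SE 0.69, adjusted p = 1) for Pgk1, 0.45 (SE 0.36, adjusted p = 1) for Pkm and 0.44 (SE 0.37, adjusted p = 1) for Ldha. No difference between tumours and culture in the response of these genes to TAZ knockdown was detectable with these libraries, and the fit carried no surrogate variable.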

How the data were processed

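The authors trimmed 3′ MARS-seq reads with cutadapt, mapped them to GRCm38 with STAR in the UTAP pipeline and counted them per gene with HTSeq. The deposited raw counts of 8 tumours and 6 cultures were tested. The deposited tables also hold a signal (the authors' counts divided by DESeq2 size factors), the authors' regularized log2 values, batch-corrected with sva in cells, and the authors' log2 fold changes and p-values, none of which were used. Per the labels, groups and replicate numbers come from the sample titles.

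Genes that passed filterByExpr were scaled by TMM and tested in R 4.3.3 with the quasi-likelihood test of edgeR 4.0.16, with Benjamini-Hochberg adjustment over all genes tested and a threshold of 0.05. Cells had 1 surrogate variable from svaseq (sva 3.50.0). Tumours against cells of each line, and the interaction, came from 1 fit of 4 groups. SEs were computed as log2 fold change over the square root of F. Single genes were also put to an exact two-sided permutation test of log2(CPM + 0.5). Scripts were tested on simulated counts.

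The fit of cells had no replicate block, which was an alternative. Cultures of equal number shared deviations from their group means, with correlations over genes of 0.31, 0.18 and 0.60 (shTAZ cells 2 had 0.22 with shC cells 1), so the numbers were taken to pair the cultures. The main values for cultures come from the fit without this pairing, and blocked values are given beside some of them only. In tumours these were 0.22, 0.12, 0.32 and -0.011, and shTAZ tumour 1 had 0.27 with shC tumour 4. Equal numbers were therefore not taken to pair the tumours, though these values do not exclude a pairing.

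Genes given with every library's value were those called or without overlap between groups and the 4 that moved most in each direction in the knockdown comparisons, the 5 called genes that moved most in tumours against culture, and always Hif1a, Slc2a1, Hk2, Ldha, Pgk1, Vegfa, Bnip3 and Car9. The list, the pathway and marker lists and these rules were chosen with earlier results of these data known. The alternatives tried were RLE size factors, DESeq2 1.42.0, limma 3.58.1 voom, a replicate block, no filter, a minimum of 10 counts per library, the library code letters, other surrogate variables and leaving out each library. A count of 0 allows up to 3 counts, for counting error only. Promoters and gene positions come from RefSeq (GRCm38.p6). Figures were drawn with matplotlib 3.10.9.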

Additional observations from a re-analysis of the deposited data

Results flagged for a closer look

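Pfkfb3 reached 47.5 CPM in shTAZ tumour 1, against 10.1 to 12.0 CPM in the other 3 shTAZ tumours, and stood apart from its group by Dixon's criterion for 4 samples. Bnip3 reached 159.6 CPM in shC tumour 1, against 18.5 to 37.5 CPM in the other 3 shC tumours, and stood apart in the same way. These were 2 of 28 groups of 4 tumours examined over the named genes (10 more, of mean deviations over roles and the list, gave none), and chance alone sets about 1 in 20 groups apart. shC tumour 1 is also the library with the highest total count, 22364483, and the part of its depth in the level of Bnip3 was not tested.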

How the results depend on the processing

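No listed gene was called between shTAZ and shC in tumours, in cells or in the interaction under any alternative. The count of all genes called in tumours was 0, against 4 with DESeq2 and 67 with only the tumours of the second code letters, and 0 in every fit that left out 1 tumour. In cells it was 1, against 5 with DESeq2, 3 without a filter, 4 with at least 10 counts in every library, 6 with the replicate block, 0 without a surrogate variable and 0 with the surrogate variable taken from raw counts, which was chosen after seeing the data. Leaving out each culture gave 0 to 1 genes, and the median of the list in cells then ran between -0.25 and 0.039. In shTAZ tumours against shTAZ cells at least 10 counts in every library left fewer genes to test and 1858 called, against 2807.

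Directions of uncalled genes turned as follows, on the log2 scale. In tumours Car9 was -0.024 with a term for the code letters, Slc2a1 -0.044 and Car9 -0.48 within the first letters, Hk2 -0.011, Bnip3 0.49, Ndrg1 0.0068 and Vegfa -0.014 within the second letters, and Bnip3 0.43 and Ndrg1 0.094 with 1 surrogate variable. Leaving out each tumour gave -0.022 to 0.36 for Slc2a1, -0.31 to 0.40 for Vegfa, -0.012 to 0.28 for Hk2, -0.81 to 0.58 for Bnip3, -0.60 to 0.14 for Ndrg1 and -0.20 to 0.25 for Car9. In cells Slc2a1 was -0.0086 without a filter, Vegfa -0.073 with at least 10 counts, Vegfa -0.31 and Car9 0.073 with the replicate block, Vegfa -0.21 without a surrogate variable, and Slc2a1 -0.25 and Hif1a -0.0046 with the variable from raw counts. Leaving out each culture gave -0.35 to 0.93 for Hif1a, -0.58 to 0.34 for Bnip3, -0.25 to 0.40 for Slc2a1, -0.79 to 0.14 for Ldha, -0.33 to 0.32 for Vegfa and -0.31 to 1.02 for P4ha2. In tumours against cells Hif1a was -0.017 in the shC line with DESeq2, and leaving out each library gave -0.47 to 0.13 for Ldha in the shTAZ line and -1.20 to 0.32 for Hif1a and -0.39 to 0.20 for Pgk1 in the shC line. The cause of these turns was not tested.

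Of the listed genes, DESeq2 called 9 in shTAZ tumours against shTAZ cells and 13 in shC tumours against shC cells, voom 8 and 12, and leaving out each library 7 to 11 and 8 to 14, against 8 and 10. The replicate block over all 14 libraries, where the labels do not tie numbers of tumours to those of cultures, gave 10 and 12, and the block in tumours called 0 genes. Low counts left Aldoc, Bnip3l, Hif1a, Higd1a, P4ha1 and Pdk1 untested in tumours. Among the genes chosen by the rule no other value changed direction. Over the fits without 1 library 8 calls of named genes were lost and 16 gained, and under the other settings 1 was lost and 7 were gained.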
